A study of Homo sapiens with 4 samples.

Results

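Chemokines are small secreted proteins that guide migrating cells, and most of them signal through receptors with 7 membrane-spanning helices that couple to Gi proteins. The genes described here are 6 chemokine genes (CXCL12, CXCL16, CCL2, CCL20, CCL28 and IL8) and the 2 receptor genes for CXCL12 (CXCR4 and CXCR7), 8 of the 23605 gene symbols in the expression tables. All 8 symbols were found, with CXCR7 as the older symbol of ACKR3 and IL8 as the older symbol of CXCL8. They were measured by RNA sequencing in LCC9 cells, a breast cancer line that the labels give as resistant to tamoxifen, from the breast lumen and with wild-type estrogen receptor alpha present. Cultures received A7, named in the labels as a compound that mimics the tumour suppressor protein BRCA1, for 24 h (2 libraries) or the DMSO vehicle for 24 h (2 libraries), both in phenol red-free medium with 5% charcoal-stripped serum. No concentration of A7 and no separate cultures are named in the labels, so the spread between the 2 libraries of a group may be technical. The 8 genes were chosen by their FPKM values in these 4 libraries and the difference between the groups, so their differences between A7 and vehicle are given as a description, with no test.

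CXCL12 is produced mainly by stromal cells, and tumour cells that carry CXCR4 migrate towards it. In breast cancer cells that carry the estrogen receptor, CXCL12 is itself known as an estrogen-induced gene. CXCR4 couples to Gi proteins, whereas CXCR7 binds CXCL12 and CXCL11, recruits arrestins, takes the ligand up and lowers its level outside the cell. IL8, CCL2 and CCL20 are classical target genes of the transcription factor NF-kB, whose activity the title of the series concerns.

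Values are FPKM (fragments mapped to a gene, scaled to transcript length and to the mapped fragments of the library), and scaled FPKM are FPKM divided by a factor per library of 0.9899 to 1.02. Estimated depth was low, with about 4100000 and 3100000 fragments in the A7 libraries and about 2200000 in each vehicle library. The luminal markers were all above 0 in every library (8 of 8 genes), and their summed level was 1006 and 787 FPKM with A7 and 1153 and 927 FPKM with vehicle. Most of that sum came from the keratin genes KRT18 and KRT19. The sums overlapped between the groups, and so did KRT8, KRT19 and EPCAM. KRT18 was just lower with A7, at 237 and 176 FPKM against 316 and 239 FPKM with vehicle. The luminal transcription factor genes and CDH1 were higher with A7, without overlap. So were 18.3% of all 8952 genes with a mean of at least 1 FPKM, and 18.6% were lower without overlap. CDH1 had 68.3 and 71.4 FPKM with A7 and 65.8 and 67.7 FPKM with vehicle. GATA3 had 176 and 154 FPKM with A7 and 139 and 134 FPKM with vehicle. FOXA1 had 24.4 and 21.2 FPKM with A7 and 19 and 14.8 FPKM with vehicle. ESR1 had 5.3 and 5.3 FPKM with A7 and 4.29 and 4.86 FPKM with vehicle. Its log2 difference of scaled FPKM + 1 was 0.18 (SE 0.17, limma adjusted p = 0.861). The part of these luminal genes in the results was not tested. The fibroblast markers stood apart in A7 replicate 1, where 7 of 8 were above 0 with a sum of 11.1 FPKM, against 0.982 FPKM in A7 replicate 2 and 0.417 and 0.427 FPKM in the vehicle libraries. Most of the fibroblast sum in A7 replicate 1 was the matrix proteoglycan gene DCN, at 8.31 and 0.235 FPKM with A7 and listed at 0 in both vehicle libraries, and the receptor gene PDGFRB was at 0 in all 4. Of the leukocyte markers 5 of 8 were at 0 in every library, PTPRC among them, with sums of 5.28 and 4.65 FPKM with A7 and 5.73 and 5.28 FPKM with vehicle, mostly from CD68. Of the endothelial markers 4 of 6 were at 0 in every library, and the sums were 0.0289 and 0.0683 FPKM with A7 and 0.0953 and 0.0974 FPKM with vehicle. An exact 0 can be a failed estimate in such tables, since RPS21, a ribosomal protein gene that every cell uses, was also listed at 0 in all 4 libraries.

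CXCR7 stood far above every other gene of the chemokine system named here as a chemokine or a chemokine receptor. It had 73.2 and 78 scaled FPKM in the A7 libraries and 51.3 and 45 scaled FPKM in the vehicle libraries. Both A7 libraries lay above both vehicle libraries. The means were 75.6 ± 3.37 with A7 and 48.1 ± 4.45 with vehicle (SD, n = 2 each), 1.57-fold higher with A7, and the log2 difference of scaled FPKM + 1 was 0.64 (SE 0.14). The values rest on roughly 656 and 547 fragments with A7 and 251 and 218 with vehicle, estimated with a transcript of 2203 bases. The difference stayed between 0.55 and 0.74 when any 1 library was left out. It was 0.60 without A7 replicate 2 and 0.69 without A7 replicate 1, the library with most of the fibroblast marker level. A7 replicate 2 also held DCN at 0.235 FPKM and LUM at 0.122 FPKM, both listed at 0 with vehicle. Leaving out A7 replicate 1 therefore does not remove these markers from the A7 group, and their part in the CXCR7 difference was not tested. In FPKM, CXCR7 lay between the percentiles 94.5 and 96.4 of all symbols in the 4 libraries.

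CXCR4, the receptor that signals through Gi, was listed near the minimum of 1 FPKM for a tested gene. It had 1.26 and 1.65 scaled FPKM with A7 and 1.27 and 1.81 scaled FPKM with vehicle. The groups overlapped, and each held a library near 1.3 and a library above 1.6. The means were 1.46 ± 0.271 with A7 and 1.54 ± 0.378 with vehicle (SD, n = 2 each), and the log2 difference was -0.04 (SE 0.23), with a sign that turned to 0.08 when FPKM were rescaled to TPM. The whole fragment numbers closest to these values were 9 and 9 with A7 and 5 and 7 with vehicle, so differences of moderate size could not be resolved at this depth.

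On a per-length scale CXCR7 exceeded CXCR4 by 57.9 and 47.3 times in FPKM in the A7 libraries and by 40.3 and 24.9 times in the vehicle libraries. Both A7 ratios lay above both vehicle ratios, with CXCR4 resting on few fragments in each. The ratio of CXCR7 to its ligand CXCL12 was 8.85 and 10.1 with A7 and 4.64 and 5.76 with vehicle. Both kinds of ratio contain the CXCR7 difference given above and are not a separate result.

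CXCL12 had 8.27 and 7.76 scaled FPKM with A7 and 11.1 and 7.81 scaled FPKM with vehicle. The A7 libraries and vehicle replicate 2 lay close together, and vehicle replicate 1 stood above them. The means were 8.02 ± 0.364 with A7 and 9.43 ± 2.29 with vehicle (SD, n = 2 each), and the log2 difference was -0.19 (SE 0.20), with a sign that turned to 0.01 with FPKM rescaled to TPM. Vehicle replicate 1 decides this value, since the difference was 0.03 without it and -0.42 without vehicle replicate 2. The fragments behind each value were roughly 62 to 119 and 46 to 87 with A7 and 46 to 87 and 32 to 61 with vehicle, for transcripts of 1857 to 3532 bases. CXCL12 is also a fibroblast gene. A7 replicate 1, which held most of the fibroblast marker level, had a CXCL12 level close to that of A7 replicate 2. Without A7 replicate 1 the CXCL12 difference was -0.23, and the part of the fibroblast markers in it was not tested.

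**Figure D1:**
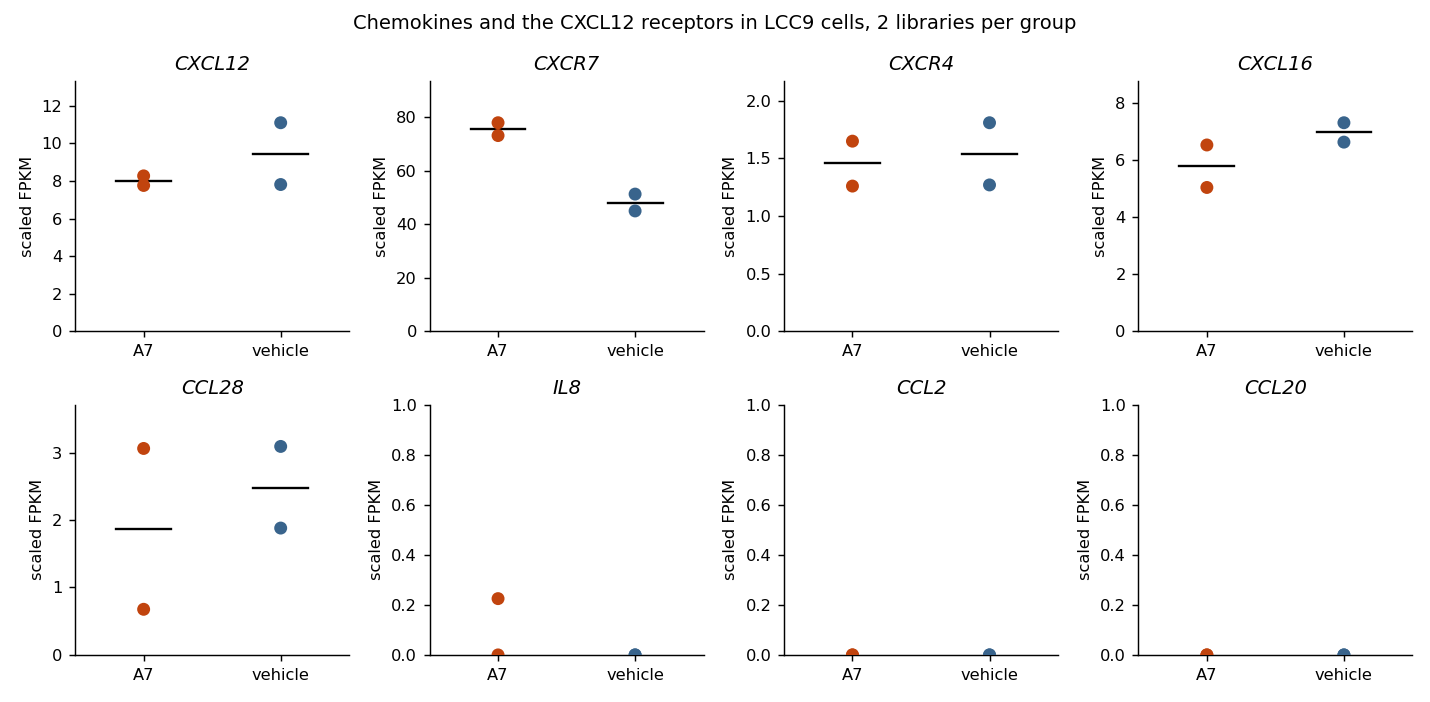
Scaled FPKM (vertical axes, from 0) of the 8 genes in the 2 A7 and the 2 vehicle libraries, 1 point per library, with bars at the group means where a gene was above 0 in every library. CXCR7 shows groups far apart, CXCL16 groups just apart, and CXCL12, CXCR4 and CCL28 overlapping groups, while CCL2 and CCL20 lie at 0 and IL8 has 1 point above 0.

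CXCL16, made as a membrane-anchored chemokine that can be shed, had 6.53 and 5.04 scaled FPKM with A7 and 7.31 and 6.63 scaled FPKM with vehicle. Both A7 libraries lay below both vehicle libraries, but the highest A7 value and the lowest vehicle value differed by less than the A7 replicates did. The means were 5.78 ± 1.05 with A7 and 6.97 ± 0.483 with vehicle (SD, n = 2 each), and the log2 difference was -0.24 (SE 0.19), shrinking to -0.04 with FPKM rescaled to TPM and to -0.08 without A7 replicate 2. These values rest on roughly 44 to 59 and 27 to 36 fragments with A7 and 27 to 36 and 24 to 32 with vehicle. CXCL16 shares 85 of its 2794 annotated exon bases with MED11, a Mediator subunit gene on the opposite strand, and the library protocol names no step that keeps strand. MED11, looked up after the values of CXCL16 were known, had 15.3 and 17.7 scaled FPKM with A7 and 27.5 and 28.7 scaled FPKM with vehicle (log2 difference -0.74, SE 0.15, limma adjusted p = 0.579, unadjusted p = 0.00291). How many fragments the counting gave to each gene of this pair was not tested. The receptor of CXCL16, CXCR6, was listed at 0 in all 4 libraries.

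CCL28, a chemokine of mucosal epithelia, had 0.676 and 3.06 scaled FPKM with A7 and 3.09 and 1.88 scaled FPKM with vehicle. A7 replicate 1 was the lowest of the 4, and A7 replicate 2 and vehicle replicate 1 were nearly equal. The means were 1.87 ± 1.69 with A7 and 2.48 ± 0.853 with vehicle (SD, n = 2 each), and the log2 difference was -0.40 (SE 0.45). That value rests on A7 replicate 1, since it was 0.24 without this library and -1.03 without A7 replicate 2. Roughly 4.2 to 8.6 and 15 to 31 fragments with A7 and 10 to 21 and 6.3 to 13 with vehicle lie behind the values. Of its receptors, CCR10 and CCR3 were at 0 in every library.

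Of the 8 genes, 5 reached a mean of 1 FPKM and entered the fit over all 8952 such genes. Among these 5, CXCR7 had both A7 libraries above both vehicle libraries, CXCL16 had both below, and the groups of the other 3 overlapped. Over all tested genes, 18.3% had groups without overlap and higher with A7 and 18.6% lower with A7. The median log2 difference was -0.19 over the 5 genes and -0.0019 over all tested genes. CXCR7 was the only one of the 5 with a higher mean with A7, but CXCL12 and CXCR4 also turned positive on the TPM scale, where the median over all genes was 0.17. Relative to that shift the TPM differences were 0.69 for CXCR7, -0.17 for CXCL12, -0.09 for CXCR4, -0.39 for CCL28 and -0.22 for CXCL16.

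**Figure D2:**
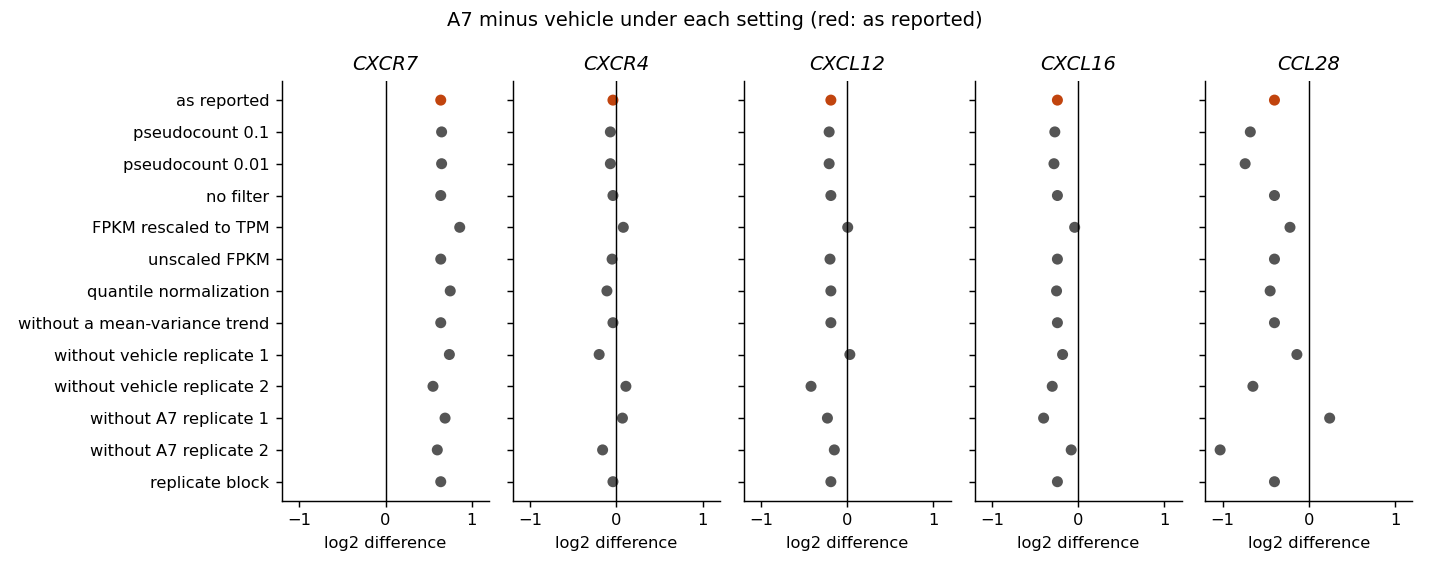
Log2 difference of A7 minus vehicle (horizontal axes) for the 5 genes that reached the expression minimum, as reported (red, top row) and under each other setting (grey). CXCR7 stays between 0.55 and 0.86, CXCL16 between -0.40 and -0.04, and the points of CXCR4, CXCL12 and CCL28 fall on both sides of 0.

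CCL2, CCL20 and IL8 were listed at or near 0 in every library. CCL2, which attracts monocytes, was listed at 0 in both A7 and both vehicle libraries. CCL20, the ligand of CCR6, was likewise listed at 0 in all 4. IL8, which attracts neutrophils, was listed at 0.222 FPKM in A7 replicate 1 and at 0 in A7 replicate 2 and in both vehicle libraries. The IL8 value corresponds to an estimated 0.6 to 1.6 fragments, depending on the transcript. This value lay in the deepest library, which also held most of the fibroblast marker level. Whether depth or the fibroblast markers bear on it was not tested. A single fragment of CCL2 would have been listed at about 0.331 and 0.435 FPKM in the A7 libraries and at 0.612 and 0.627 FPKM in the vehicle libraries. CCL20 would have needed 0.29 to 0.806 FPKM per fragment with A7 and 0.537 to 1.16 FPKM with vehicle. Levels below such steps cannot be told from 0 here, and no fold change is given for these 3 genes. Of the receptors of IL8 and CCL2, CXCR1 and CCR2 were listed at 0 in all 4 libraries and CXCR2 at 0.151 FPKM in vehicle replicate 1 alone. CCR6 had 0.136 and 0.277 FPKM with A7 and 0.125 and 0.387 FPKM with vehicle.

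**Figure D3:**
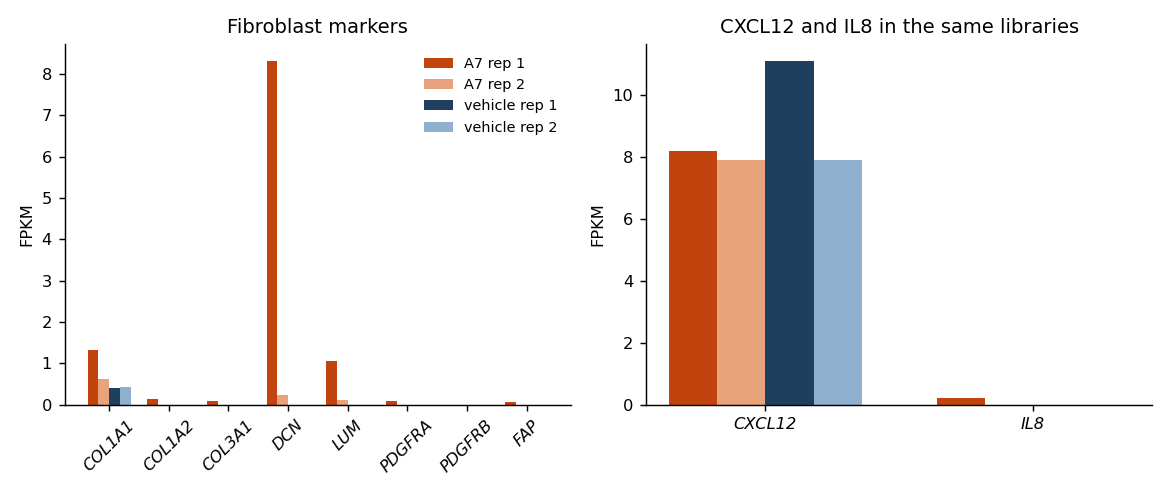
FPKM (vertical axes, from 0) of the 8 fibroblast markers (left) and of CXCL12 and IL8 (right) in each library. DCN reaches 8.31 FPKM in A7 replicate 1, where IL8 has its single value above 0, whereas CXCL12 is highest in vehicle replicate 1.

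The sequences before the start sites of IL8 and CCL20 are shown because both genes are known targets of NF-kB and both were listed at or near 0 with A7 and with vehicle. They cover the 250 bases before the annotated start, on the forward strand of GRCh38.p14 (RefSeq), at chr4:73740319-73740568 for IL8 and chr2:227813592-227813841 for CCL20. Capitals mark the AP-1 element TGACTCA and the NF-kB element core GGAATTTCC in IL8, and a match to the NF-kB consensus on the opposite strand in CCL20.
IL8: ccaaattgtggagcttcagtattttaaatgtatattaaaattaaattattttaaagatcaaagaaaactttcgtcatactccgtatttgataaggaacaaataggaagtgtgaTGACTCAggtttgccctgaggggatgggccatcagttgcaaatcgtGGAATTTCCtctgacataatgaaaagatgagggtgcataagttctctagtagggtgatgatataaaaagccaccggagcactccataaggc
CCL20: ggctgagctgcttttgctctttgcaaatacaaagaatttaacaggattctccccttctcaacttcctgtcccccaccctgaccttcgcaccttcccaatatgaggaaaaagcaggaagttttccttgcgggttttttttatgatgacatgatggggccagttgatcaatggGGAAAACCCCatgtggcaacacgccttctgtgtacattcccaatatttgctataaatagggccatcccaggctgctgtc
In windows of 250 bases before to 50 bases after a start, searched on both strands, TGACTCA occurred in 4.95%, GGAATTTCC in 0.461% and the NF-kB consensus in 5.91% of all 35116 promoters in the table. In IL8 the AP-1 element lay at positions -137 to -131 and the NF-kB core at -91 to -83 from the start, and in CCL20 the consensus match lay at -79 to -70. The IL8 window held no match to the NF-kB consensus. The core is the known element of IL8 itself, so its match there was fixed in advance. The palindromic estrogen response element GGTCANNNTGACC occurred in 0.057% of all promoters and in none of the windows of CXCL12, CXCR4, CCL28, CCL20 or IL8, and CXCL12, CXCR4 and CCL28 held no match to the NF-kB consensus, its IL8 core or the AP-1 element either. The table matched 5 of the 8 genes, without CXCR7, CXCL16 and CCL2. The AP-1 element and the IL8 core were added to the search after the sequences had been seen, and a match is a description of letters, not of binding.

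Of 47 chemokine genes in the tables, the 6 described here included, 31 were listed at 0 in all 4 libraries and 5 reached a mean of 1 FPKM. Of 23 receptor genes, 14 were at 0 in all 4, and CXCR7 and CXCR4 were the 2 that reached a mean of 1 FPKM. Of all 23605 symbols, 16276 were above 0 in at least 1 library and 8952 reached a mean of 1 FPKM. Above 0 were 18 of these 70 genes in each A7 library and 15 and 14 in the vehicle libraries. These counts include CXCR5 at 2.26e-07 FPKM in A7 replicate 1 and at 3.3e-06 FPKM in vehicle replicate 2, far under the value of 1 fragment. In A7 replicate 1 alone, 4 genes were above 0 (CCL15, CXCL1, CXCL2 and IL8, at most 0.222 FPKM), in A7 replicate 2 alone 3 (CCL16, XCL2 and CCR7, at most 0.765 FPKM), in vehicle replicate 1 alone CXCR2 and in vehicle replicate 2 alone CXCL11. The A7 libraries were also the deeper ones, so treatment and depth cannot be told apart in these counts.

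The most abundant chemokine was CCL5, which attracts T cells and monocytes. It had 11.5 and 15.7 scaled FPKM with A7 and 11.6 and 13.9 scaled FPKM with vehicle, overlapping groups with a log2 difference of 0.07 (SE 0.20, limma adjusted p = 0.961). CXCL17, a chemokine of mucosal tissue, had 1.27 and 6.84 scaled FPKM with A7 and 5.77 and 1.74 scaled FPKM with vehicle, so the replicates within each group lay further apart than the group means (log2 difference -0.03, SE 0.67, limma adjusted p = 0.997). In both genes and in CCL28, A7 replicate 2 was above A7 replicate 1. XCL1, a lymphocyte chemokine singled out after its values were seen, stayed just under the minimum for a test, at 0.618 and 0.635 FPKM with A7 and 0.85 and 1.75 FPKM with vehicle, without overlap. CCR1, a receptor of CCL5, had 0.162 and 0.433 FPKM with A7 and 0 in both vehicle libraries. The scavenging receptor gene CCBP2 had 0.316 and 0 FPKM with A7 and 0.289 and 0.296 FPKM with vehicle.

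**Figure D4:**
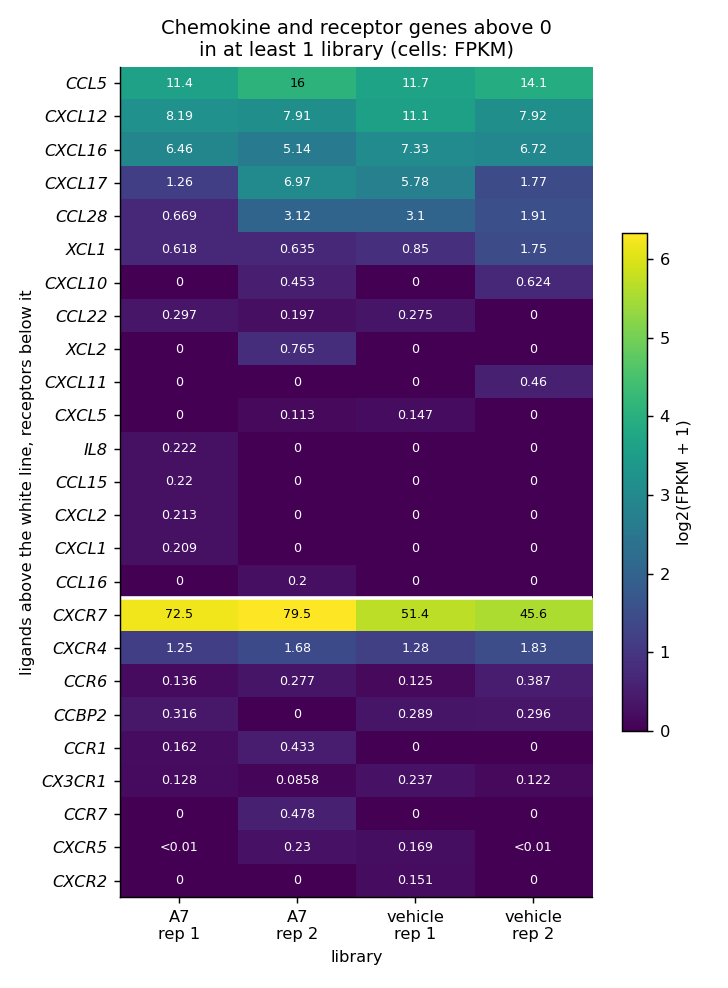
FPKM of each chemokine (above the white line) and chemokine receptor gene (below it) that was above 0 in at least 1 library, with colour for log2(FPKM + 1) and 1 column per library. CXCR7 at 45.6 to 79.5 FPKM and CCL5, CXCL12 and CXCL16 stand out, and most other rows hold values under 1 FPKM.

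The other genes of the chemokine system were counted from lists of chemokines, receptors, further ligands of the CXCL12 receptors, signal transducers, and genes of receptor turnover and chemokine shedding. Of 104 such genes with a value, 30 were tested, 15 with a higher and 15 with a lower mean with A7, and their median log2 difference was -0.00014 beside -0.0019 for all tested genes. None of the 30 passed limma at an adjusted p under 0.05 in either direction, and none had an unadjusted p under 0.05. Over all 8952 tested genes 0.0223% passed the adjusted threshold (0.0112% higher and 0.0112% lower with A7) and 5.76% the unadjusted one. Groups without overlap were found in 4 of the 30 with A7 higher and in 3 with A7 lower. Over all tested genes the shares were 18.3% and 18.6%.

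Among the further ligands, MIF, a cytokine that binds CXCR4 and CXCR7, had 152 and 152 scaled FPKM with A7 and 163 and 77.2 scaled FPKM with vehicle. Vehicle replicate 2 stood alone at a lower level. A7 minus vehicle was 0.44 on the log2 scale (SE 0.33, limma adjusted p = 0.834). HMGB1, a chromatin protein that forms a complex with CXCL12 outside the cell, had 1454 and 1616 scaled FPKM with A7 and 1539 and 1932 scaled FPKM with vehicle (log2 difference -0.17, SE 0.15, limma adjusted p = 0.855). HMGB1 has 4 genes of near-identical sequence, so its reads could be shared. CXCL11, the second chemokine ligand of CXCR7, was above 0 only in vehicle replicate 2, at 0.46 FPKM.

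The transducers split evenly, with 8 of 16 tested genes higher and 8 lower in mean. RGS16, which shortens Gi signals, had 1.82 and 2.45 scaled FPKM with A7 and 3.33 and 2.63 with vehicle, without overlap (log2 difference -0.35, SE 0.22, limma adjusted p = 0.806). ARRB2, an arrestin that binds activated CXCR4 and CXCR7, had 2.64 and 0.83 scaled FPKM with A7 and 3.95 and 1.84 with vehicle, with overlapping groups (log2 difference -0.54, SE 0.42). ARRB1, the other arrestin gene listed, stayed just under the minimum for a test and lay the other way, without overlap. It had 1.18 and 1.06 FPKM with A7 and 1.04 and 0.591 FPKM with vehicle. The G protein subunit gene GNB1 had 14.8 and 13.4 scaled FPKM with A7 and 13.9 and 9.38 with vehicle. RAC1, a GTPase of cell migration, had 47.4 and 46.9 scaled FPKM with A7 and 41.4 and 42 with vehicle, narrow groups without overlap (log2 difference 0.17, SE 0.13, limma adjusted p = 0.83). The most abundant transducers were CDC42, another migration GTPase, at 191 and 200 scaled FPKM with A7 and 132 and 213 with vehicle, and GNG5 at 51.1 and 60.0 with A7 and 53.6 and 53 with vehicle. RAC1 and CDC42 have 3 and 2 genes of near-identical sequence, so their levels are less certain.

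Of 10 tested turnover and shedding genes 5 had a higher and 5 a lower mean. ADAM17, a protease that sheds CXCL16 and other surface proteins, had 11.2 and 13.2 scaled FPKM with A7 and 9.43 and 9.69 with vehicle. Both A7 libraries were above both vehicle libraries (log2 difference 0.32, SE 0.16, limma adjusted p = 0.806). ADAM10, the other main CXCL16 sheddase, lay the other way, at 2.78 and 2.36 scaled FPKM with A7 and 3.33 and 3.39 with vehicle (log2 difference -0.29, SE 0.19, limma adjusted p = 0.806). The deubiquitinase gene USP8 had 17.4 and 18.7 scaled FPKM with A7 and 16.5 and 16.2 with vehicle, and STAM2, a sorting factor of endosomes, 3.31 and 4.93 with A7 and 3.26 and 3.50 with vehicle. SDC4, a heparan sulfate proteoglycan that can bind chemokines, had 29.6 and 31.3 scaled FPKM with A7 and 27.8 and 28.7 with vehicle, and VPS4B, which acts in endosomal sorting, 16.2 and 21.6 with A7 and 16.4 and 22.5 with vehicle. ADAM17 shares near-identical sequence with its neighbour IAH1.

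**Figure D5:**
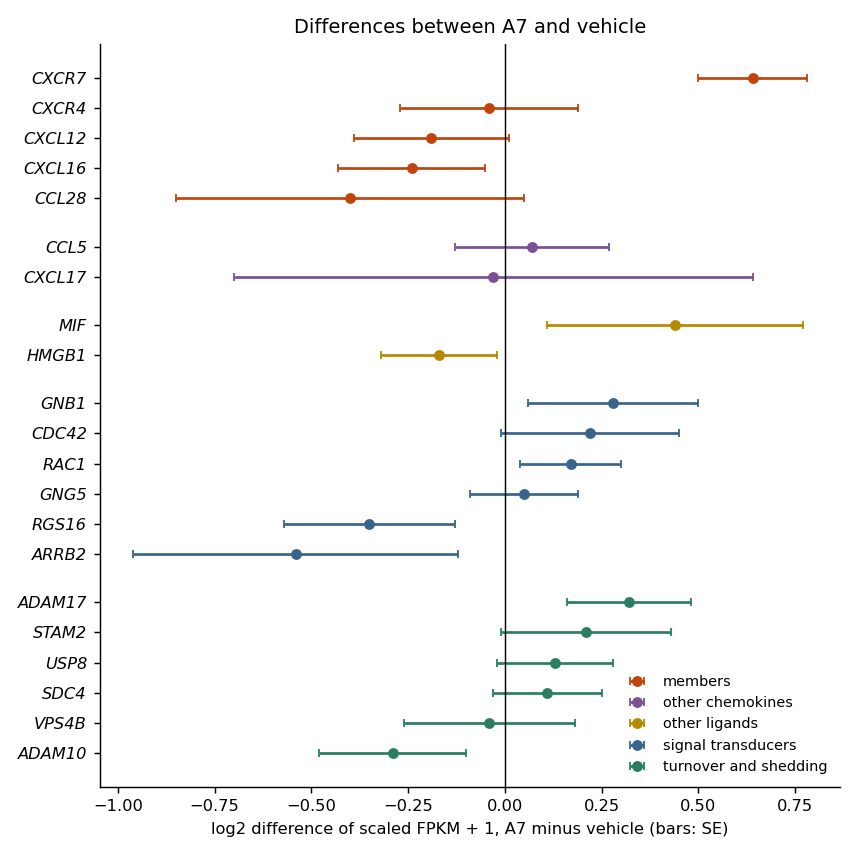
Log2 difference of scaled FPKM + 1 between A7 and vehicle (horizontal axis, A7 minus vehicle, bars are SE) for the 5 members that reached the expression minimum and the named genes of the other lists. CXCR7 lies furthest to the right at 0.64, and ARRB2 at -0.54 and CCL28 at -0.40 lie furthest to the left, with wide bars. The members were chosen with their differences known, so their places are a description.

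The genes closest to each member in pattern were found by the root mean square distance between profiles of log2(scaled FPKM + 1), each centred on its mean over the 4 libraries, among 8951 other tested genes. Closest to CXCR7 were DDX59 (distance 0.0252), RCOR3 (0.0387) and GFOD2 (0.0512). DDX59 had 4.65 and 4.94 scaled FPKM with A7 and 3.09 and 2.44 with vehicle, far below CXCR7 in level. Closest to CXCR4 were MATR3 (0.0151), C11orf58 (0.0156) and RBM22 (0.0182), all with lower values in replicate 1 than in replicate 2 of each group. Closest to CXCL12 were ATP1A1OS (0.00932), RFESD (0.0172) and ISG20 (0.0174), and each of them was highest in vehicle replicate 1, as CXCL12 was. With 4 libraries such likeness describes these libraries only.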

How the data were processed

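The authors deposited FPKM per gene symbol, a table for each library. The submitters' processing notes name CASAVA 1.8.2, TopHat, Cufflinks 2.2.1 and GRCh37 without saying what each was used for. The annotation, the handling of multiply mapped reads and any scaling by the authors are not stated there. Of 23619 lines, 14 with a number in place of a symbol were left out.

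Scale factors were median ratios to the geometric mean of all 4 libraries, over 8802 genes with a mean of at least 1 FPKM and above 0 throughout. The 8952 genes with a mean of at least 1 FPKM were fitted with limma 3.58.1 (R 4.3.3, mean-variance trend) on log2(scaled FPKM + 1), A7 minus vehicle, two-sided, and called at a Benjamini-Hochberg adjusted p under 0.05. The pseudocount makes differences of low genes too small. An exact permutation test of 2 against 2 cannot give a p below 0.333. The fit was tested on simulated data with changes larger than any difference reported here, so its power at the reported sizes was not tested. The members and lists were chosen with earlier results of these data known. Other genes were named by a rule: the 4 smallest unadjusted p and the 2 highest means of each list, and the 3 nearest profiles of CXCR7, CXCR4 and CXCL12. Outside this rule, receptors of the named chemokines, CXCL11, XCL1, ARRB1, MED11, RPS21, the cell type markers and genes above 0 in a single library were also given. Depth in vehicle replicate 1 was estimated from the lowest step of FPKM times length over genes with 1 protein-coding transcript in GENCODE 29, and that of the other libraries from the most common ratio of low values to it. Fragment numbers are therefore rough. Near-identical genes were sought with blastn 2.17.0 (95% identity or more, 50% cover or more, 300 bases or more). Alternatives changed the pseudocount, filter, scaling and variance model, added a replicate block or left out 1 library. The files hold no coordinates, and those given are of the RefSeq table.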

Additional observations from a re-analysis of the deposited data

How the results depend on the processing

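Across 12 alternatives the log2 difference of CXCR7 kept its sign (0.86 on the TPM scale, 0.75 with quantile normalization, 0.55 to 0.74 with 1 library left out), and so did that of CXCL16 (-0.04 with TPM, -0.40 to -0.08 with 1 library left out). That of CXCL12 ran from -0.42 to 0.03 with 1 library left out, that of CXCR4 from -0.20 to 0.11 and that of CCL28 from -1.03 to 0.24. For CCL28 a pseudocount of 0.1 or 0.01 gave -0.68 and -0.74. The median of the 30 other genes was 0.17 with TPM, equal to the shift of all genes, and ran from -0.0059 to 0.10 with 1 library left out. None of these 30 passed under any alternative. Over all genes, 1 was called higher and 1 lower. With no filter or with a replicate block 0 and 0 were called, without a mean-variance trend 0 were higher, at pseudocounts of 0.1 and 0.01 lower calls numbered 0, and with TPM or quantile normalization 2 were lower. With 1 library left out, 1 to 10 were higher (10 without A7 replicate 1, 9 without A7 replicate 2, 2 without vehicle replicate 2) and 0 to 7 lower (0 without A7 replicate 1, 2 without A7 replicate 2, 6 without vehicle replicate 1, 7 without vehicle replicate 2). The lone library of a group was there assumed to vary like the other group, and the cause of these changes was not tested. Deviations of same-numbered libraries from their group means correlated at 0.0906 across 8952 genes, so the numbers were not taken as pairs. A block cannot move a difference in this balanced design (CXCR7 0.64 with it), and neither can dropping the filter or the trend, so those settings say nothing about the signs. Levels under the value of 1 fragment cannot be told from 0.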
